A study of Mus musculus with 24 samples.

Results

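Peritoneal cells taken from mice that had received β-nicotinamide mononucleotide (β-NMN) were compared with cells from mice given vehicle, after both had met Escherichia coli in culture. The 12 samples of this experiment, 6 per treatment, were picked by the sample names in the study's count table, out of 24 samples in the whole series, and every gene in that table entered the comparison. Donors were male C57BL/6 mice aged 7 to 12 weeks. Each mouse received 1 mL of 4% thioglycollate into the peritoneum, which draws leukocytes into the cavity without infection. The treated group was given β-NMN intraperitoneally at 185 mg/kg/day, from the time of thioglycollate until the day before the cells were collected, and the vehicle group was given saline on the same schedule. The washed-out cells were not sorted, and in the well they were exposed for 6 h to 15 bacteria per cell, after which the supernatant was discarded before RNA was preserved. Both groups were therefore elicited and bacteria-exposed, no unstimulated sample belongs to the comparison, and β-NMN was given to the animal and not to the dish. Each library came from 1 mouse, so the spread between libraries is a spread between animals. The vehicle and β-NMN sample codes also differ by a letter, while the numbers after that letter recur in both groups. The sources give the meaning of neither.

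β-NMN is a precursor of NAD+, the coenzyme that carries electrons in glycolysis, the citric acid cycle and fatty acid oxidation and that sirtuins and PARPs consume. A macrophage that meets E. coli senses lipopolysaccharide and other bacterial products through Toll-like receptors, switches on NF-κB and AP-1, secretes cytokines, then induces its own inhibitors of these pathways and, through interferon-β, the antiviral genes. It also takes the bacteria up into phagosomes that fuse with lysosomes, where the V-ATPase proton pump acidifies the lumen and hydrolases digest the contents.

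The libraries held 31126823 to 112456050 gene counts with vehicle and 36353254 to 90903671 with β-NMN, so depth overlapped between groups. Of 54658 symbols listed, 14985 passed the filter on low counts and were tested. The first principal component took 55.6% of the variance and placed every β-NMN library on the other side of every vehicle library, from 42.6 to 63.5 against -73.5 to -40.7. Vehicle replicate 3 and β-NMN replicate 6 lay farthest from the rest of their groups: the SD of their log2 difference from the other 5 libraries was 0.643 and 0.614, against 0.356 to 0.554 in the other libraries. β-NMN replicate 4 held the most detected symbols, 37187, although its 42801239 counts were among the fewer.

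Levels are given as CPM, a gene's read count scaled to the size of its library. Macrophage markers were abundant in every library, but markers of other cell types were read too, and some of these differed between groups. Summed macrophage markers reached 7082 to 13440 CPM with vehicle and 10730 to 12330 with β-NMN, and these ranges overlapped. Adgre1, which encodes F4/80, lay at 496 to 644 CPM (median 563) with vehicle and 595 to 709 CPM (median 654) with β-NMN, and Csf1r, the receptor for macrophage colony-stimulating factor, at 156 to 241 CPM (median 188) and 194 to 262 CPM (median 229). The groups overlapped for both genes and neither was called (log2 fold changes 0.2 and 0.24). Of the 8 macrophage markers, 3 were called higher, Cd68 (0.84), Lyz2 (0.84) and Mertk (1.48), and 1 lower, Cd14 (-2.92). Markers of resident peritoneal macrophages moved both ways, with 4 of 10 called higher, Timd4 (1.73), Prg4 (1.5), Alox15 (1.33) and Selp (0.47), and 5 lower, Serpinb2 (-1.79), Cxcl13 (-1.48), Lrg1 (-1.45), Gata6 (-1.43) and Icam2 (-0.58). Their summed level was 505 to 1025 CPM with vehicle and 167 to 388 with β-NMN, without overlap, although the groups overlapped for 7 of the 10 genes, Alox15 among them. By flow cytometry of exudates from this model, the paper reports a higher share of resident macrophages with β-NMN. It also reports fewer peritoneal cells and a lower share of CD45+ cells. Those counts are of cells before culture with bacteria, and these sums are of RNA after it.

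Neutrophil genes were sharply lower with β-NMN. S100a8 and S100a9 encode the subunits of calprotectin, an abundant neutrophil protein, and S100a9 lay at 36.6 to 135 CPM (median 73.2) with vehicle and 0.804 to 6.91 CPM (median 0.95) with β-NMN. Of the 12 neutrophil markers, 9 were tested, and 6 were called lower, among them S100a9 (-5.31), S100a8 (-5.0), Ly6g (-4.77) and Cxcr2 (-4.1), while Retnlg (1.38) was called higher and Mmp8 (0.12) was not called. Of the 6 falls, 5 were beyond 1. The summed level of the markers was 495 to 1007 CPM (median 739) against 335 to 469 (median 400), without overlap. This sum fell by far less than S100a9 did. The granule genes Camp, Ngp and Elane were at most 0.376 CPM in any library. All 8 NK cell markers were called lower (summed level 55.3 to 276 against 17.7 to 39.4 CPM), as were all 6 fibroblast markers tested (130.3 to 1180 against 25.9 to 103 CPM) and 8 of 9 T cell markers, whereas Lck (0.67) was called higher and the summed T cell levels overlapped. Dendritic cell markers summed to 171 to 209.8 against 39.8 to 53.3 CPM, monocyte markers to 2158 to 3970 against 1224 to 1600 CPM and mast cell markers to 338 to 604 against 149 to 229.8 CPM, all 3 without overlap. Single markers were less uniform than these sums: 4 of 8 dendritic markers were called lower (Ccr7 (-2.41), Zbtb46 (-1.83), Flt3 (-1.22) and Xcr1 (-1.16)) and 1 higher (Cd209a (1.09)), 3 of 8 monocyte markers were lower and 5 not called, and 4 of 9 mast cell markers were lower and 5 not called. Haemoglobin and other erythroid genes went the other way, summing to 2.93 to 38.8 CPM with vehicle and 52.5 to 133 CPM with β-NMN, with all 5 tested called higher. For every other gene below whose range is given in both groups, the 2 ranges did not overlap. In bulk RNA, fewer cells of a type and less of its RNA per cell cannot be told apart, and the part of cell makeup in the gene results that follow was not tested.

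**Figure D1:**
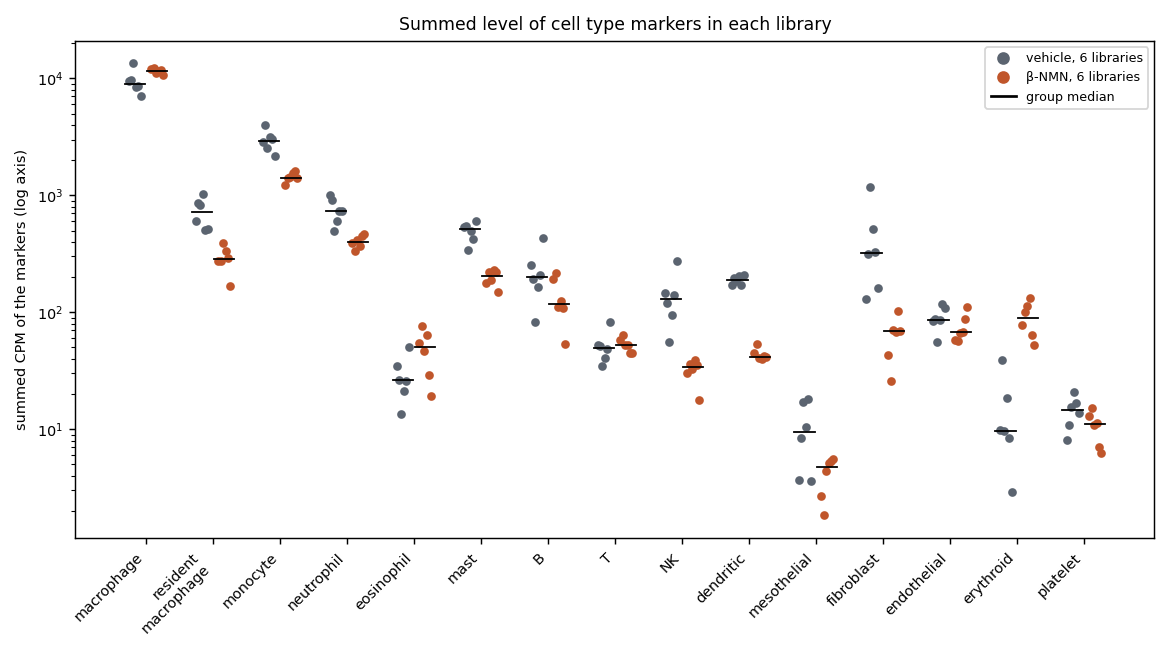
Summed CPM (log axis) of the markers of 15 cell types in each of the 6 vehicle (grey) and 6 β-NMN (orange) libraries, with the group median as a line. Macrophage markers overlap between groups, NK, dendritic and fibroblast markers lie lower in every β-NMN library, and erythroid markers lie higher.

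Between β-NMN and vehicle, 7733 genes differed at an adjusted p below 0.05, which is 51.6% of those tested. Of these, 3546 (23.7%) were called higher and 4187 (27.9%) lower. Large differences were mostly falls: 2010 genes (13.4%) were called with a log2 fold change below -1 and 783 (5.23%) with one above 1, and beyond 4 there were 57 falls and 1 rise. The groups did not overlap for 3987 genes (26.6%), and the median log2 fold change over all genes tested was -0.022. Any list of genes must be read against these shares, since about as many genes were called as not. The 63 lists described below hold 1687 different tested genes, of which 1040 were called, and 36 lists had more members lower than higher, 23 more higher and 4 equal numbers.

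**Figure D2:**
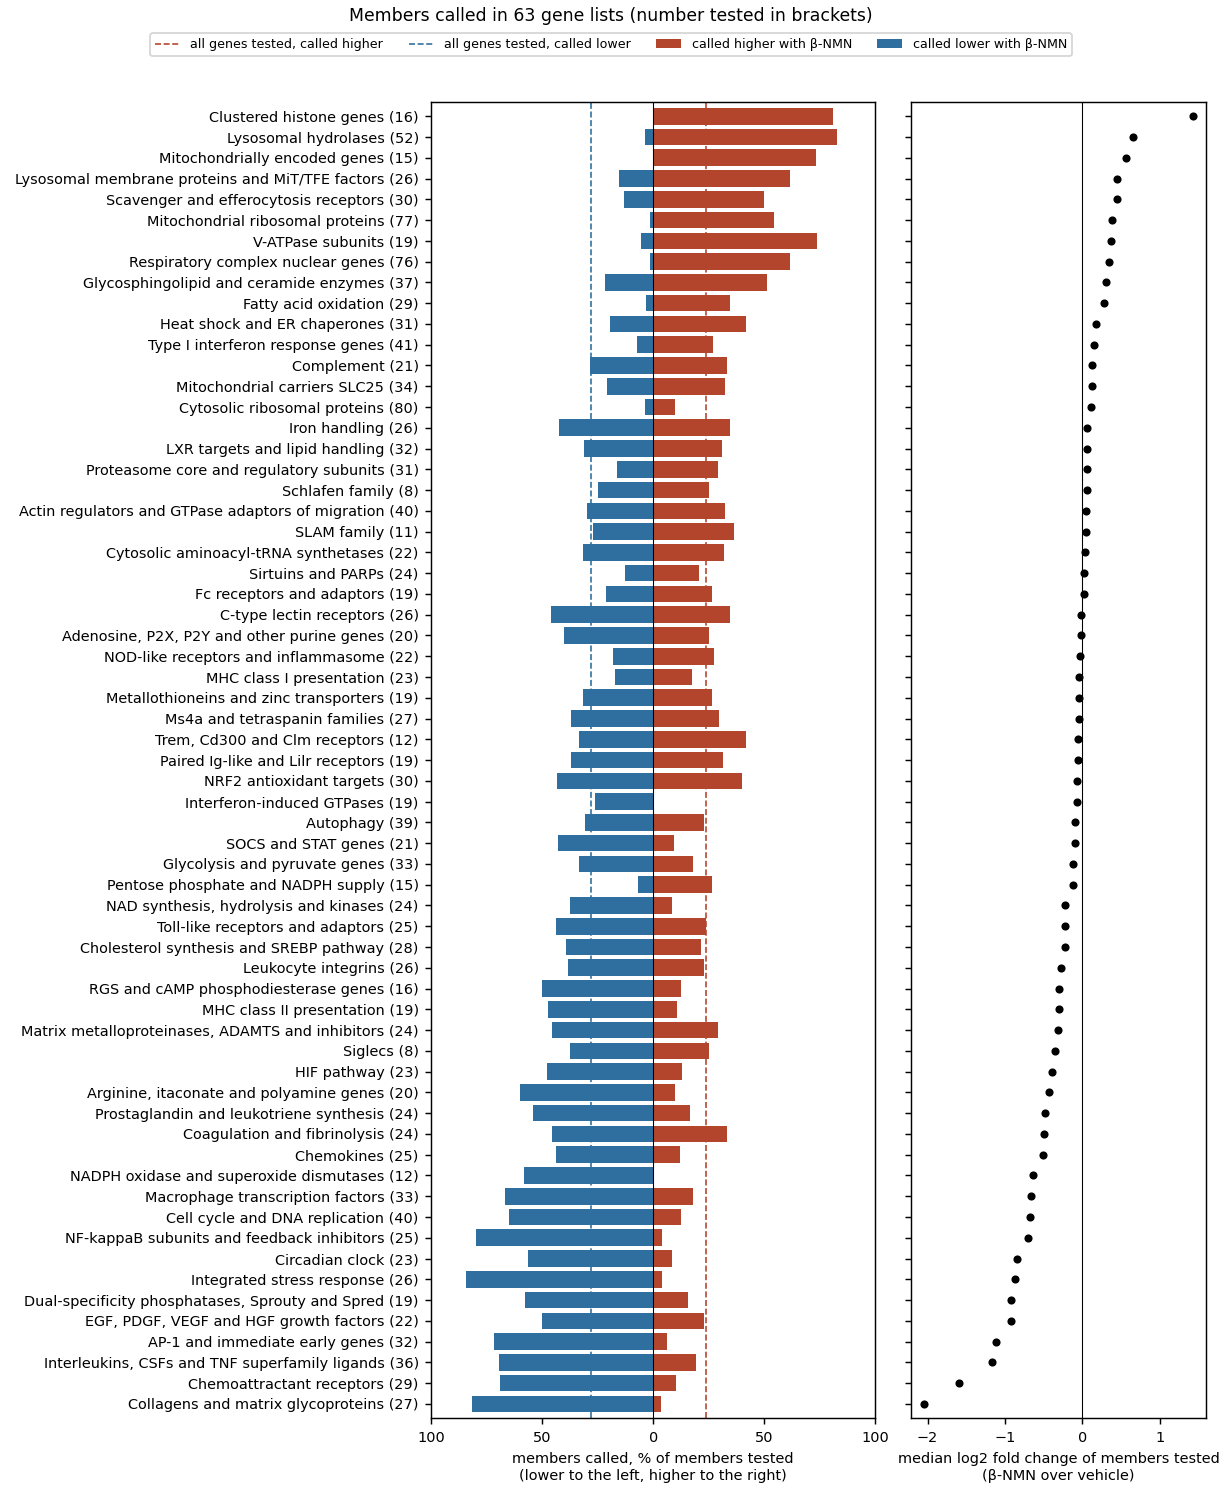
Left, the share of the tested members of each gene list called lower (blue, to the left) or higher (red, to the right) with β-NMN, with dashed lines at the shares of all genes tested, 27.9% and 23.7%. Right, the median log2 fold change of the tested members, from -2.04 for collagens and matrix glycoproteins to 1.43 for clustered histones.

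The 10 largest falls were taken among well expressed genes whose groups did not overlap, and they included secreted mediators, receptors of myeloid cells and metabolic genes. Chil1, a chitinase-like secreted protein, lay at 164 to 344 CPM (median 306) with vehicle and 1.33 to 7.5 CPM (median 2.07) with β-NMN (log2 fold change -6.57 ± 0.43, SE, adjusted p = 3.57e-08). Il1f9, the older symbol of the gene for interleukin-36γ, lay at 196 to 418 CPM (median 322) with vehicle and 1.81 to 10.8 CPM (median 2.56) with β-NMN (log2 fold change -6.13 ± 0.47). Csf3, encoding the granulocyte growth factor G-CSF, lay at 76.7 to 362 CPM (median 184) against 1.71 to 4.92 CPM (median 3.61) (log2 fold change -5.9 ± 0.43). The formyl peptide receptor Fpr1 (-5.93), the receptors Treml4 (-5.92), Trem1 (-5.8) and Trem3 (-5.78), the lipolysis inhibitor G0s2 (-5.54), S100a9 (-5.31) and the cystine transporter Slc7a11 (-5.21) made up the rest. The positions of 3 of them in build GRCm38 are chr1:134182176-134190181 for Chil1, chr11:98701263-98703629 for Csf3 and chr3:49892526-50443614 for Slc7a11. Several of these genes are also abundant in neutrophils, whose summed markers were lower without overlap, and the part of neutrophils in these falls was not tested. G0s2 (chr1:193272161-193273217, minus strand, build GRCm38) lies within the span of Lamb3 on the other strand, and whether counting used strand is not stated.

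The 10 largest rises were smaller and less alike. Trim6, an E3 ubiquitin ligase that acts in interferon signalling, lay at 1.24 to 3.25 CPM (median 2.06) with vehicle and 5.17 to 23.4 CPM (median 15.5) with β-NMN (log2 fold change 2.79 ± 0.32). The linker histone gene Hist1h1c lay at 18.3 to 26.4 CPM (median 22.4) with vehicle and 45.9 to 156 CPM (median 146) with β-NMN (2.56 ± 0.23), and its lowest β-NMN value was that of replicate 6. Vsig4, a complement receptor of tissue macrophages, lay at 1.95 to 5.2 CPM (median 3.25) with vehicle and 5.26 to 24.3 CPM (median 14.1) with β-NMN (2.16 ± 0.32), its groups separated by a narrow gap. Syngr1, a vesicle membrane protein, lay at 11.6 to 19.4 CPM (median 13.2) with vehicle and 45.6 to 67.8 CPM (median 57.3) with β-NMN (2.03 ± 0.14, adjusted p = 5.17e-08), and Gprc5c, an orphan receptor, at 1.75 to 4.57 CPM (median 3.31) with vehicle and 14.3 to 22.8 CPM (median 17.7) with β-NMN. The others were Epm2aip1 (2.11), the long noncoding RNA Gm14461 (2.66), the globin genes Hbb-bs (2.77) and Hba-a1 (2.48), which are themselves among the erythroid markers summed above, and Gm15601 (2.17), annotated antisense to Ddhd1. Trim6 and Syngr1 overlap other annotated genes, Gm8667 and Rpl3, and reads may be shared with them.

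**Figure D3:**
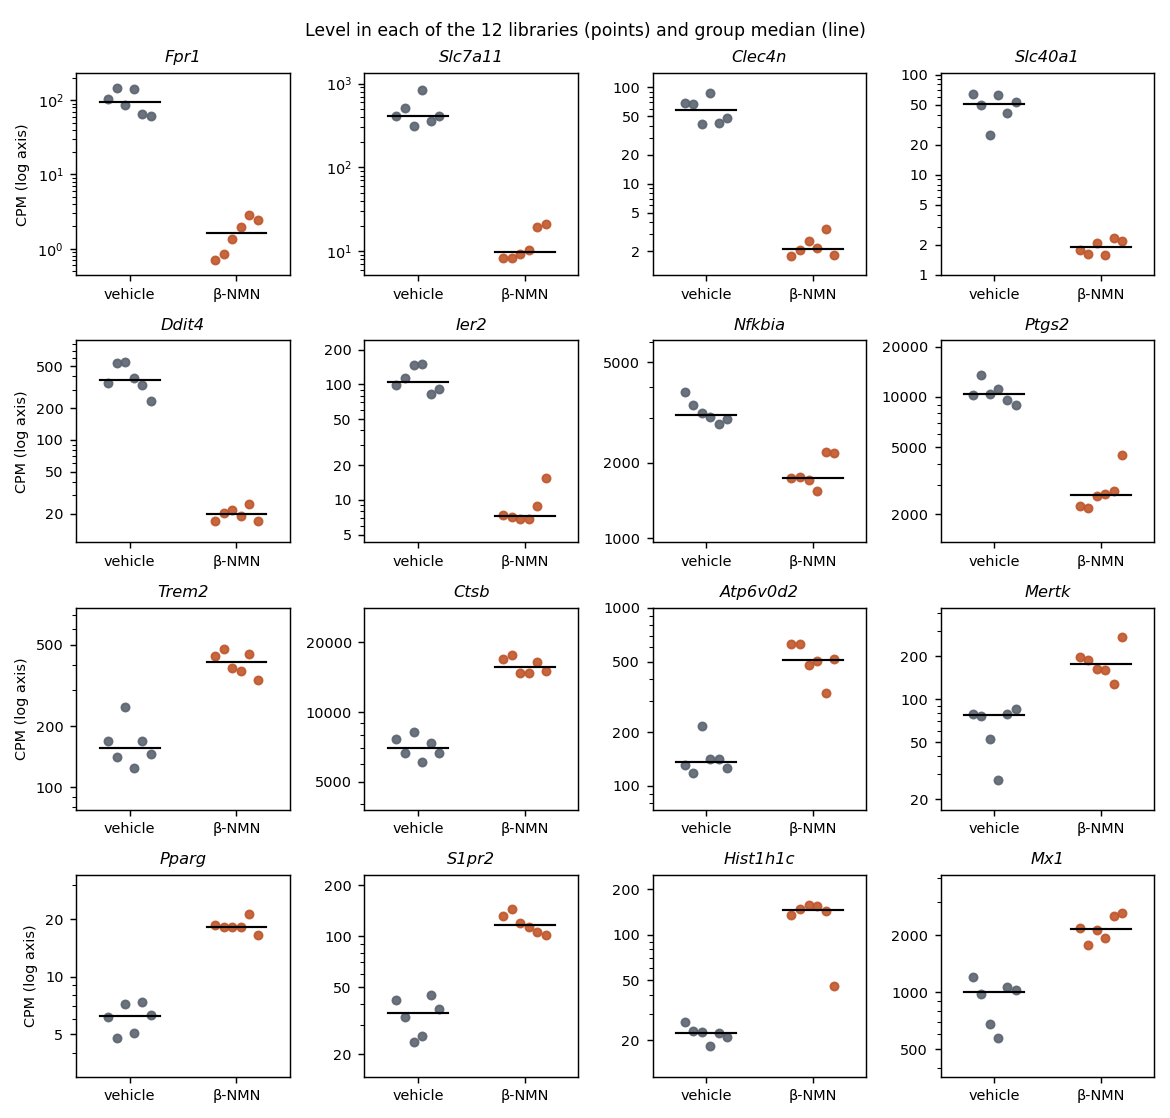
Level in CPM (log axis, different range in each panel) of 16 genes in the 6 vehicle (grey) and 6 β-NMN (orange) libraries, with group medians as lines. In every panel the 2 groups do not overlap, and β-NMN replicate 6, the last orange point, is the nearest to vehicle for Ier2, Ptgs2 and Hist1h1c.

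Among the sensors of bacteria, 6 of 25 Toll-like receptor and adaptor genes tested were called higher and 11 lower (median log2 fold change -0.23, but -0.11 to -0.15 without vehicle replicate 1 or 4 or β-NMN replicate 3 or 4). Tlr4, the lipopolysaccharide receptor, was not called (-0.23), and neither was its partner Ly96 (0.22), whereas Cd14, which passes lipopolysaccharide to them, was called lower (-2.92 ± 0.28). Irak3, a decoy kinase that restrains Toll-like receptor signals, lay at 119.9 to 203 CPM (median 145) with vehicle and 21.6 to 33.9 CPM (median 27) with β-NMN (-2.49 ± 0.15, adjusted p = 1.86e-08). Tlr13 (-2.33), Tlr6 (-1.78), Tlr9 (-1.06) and Tlr2 (-0.81) were called lower, and Tlr8 (1.07) and Cd180 (1.02) higher. NOD-like receptors and inflammasome genes were divided, with 6 higher and 4 lower of 22. Nlrp3, which nucleates the best known inflammasome, lay at 742 to 1247 CPM (median 906) with vehicle and 84.5 to 353 CPM (median 104) with β-NMN (-2.66 ± 0.33). Its range with β-NMN is wide because replicate 6 stood at the top of it. The adaptor gene Pycard was called higher (1.26), and Casp1 (0.13) and Gsdmd (0.18) were not called.

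Genes of the NF-κB system were nearly all lower. Of 25 tested, 20 were called lower and 1 higher (median -0.71), and the groups did not overlap for 13, all lower. Zc3h12a, an RNase that destroys cytokine mRNAs, lay at 296 to 371 CPM (median 319) against 99.6 to 135 CPM (median 109.5) (-1.55 ± 0.09, adjusted p = 1.86e-08). Nfkbia, the inhibitor IκBα and a direct NF-κB target, lay at 2856 to 3821 CPM (median 3099) against 1542 to 2213 CPM (median 1745) (-0.79 ± 0.11, adjusted p = 4.81e-05). The changes were modest but regular: the subunits Nfkb1 (-0.78), Nfkb2 (-0.71), Relb (-0.87), Rel (-0.71) and Rela (-0.56) were lower, as were the nuclear IκB genes Bcl3 (-0.91), Nfkbid (-1.48) and Nfkbiz (-1.09) and the ubiquitin editor Tnfaip3 (-0.55). Tnip2 (0.43) was the one gene called higher, and the kinase gene Chuk (0.046) was not called. Promoter windows, from 250 bases before to 50 after the gene start in RefSeq (GRCm38.p6), were at hand for 20 of the 25 genes, and 10 of them (50%) held the NF-κB consensus on either strand, against 4.35% of the 27025 genes in that promoter table and 5.3% of the 10849 tested genes with a window. The list was drawn up around NF-κB itself. Of these 10 genes, Tank (-0.13) and Cyld (0.084) were not called and the rest were called lower. Zc3h12a and Nfkbid, with the largest falls in the list, have a window without a match. The window of Nfkbia (chr12:55492598-55492897, minus strand) is shown as an example, 5′ to 3′, with the match in capitals at -29 from the start.
Nfkbia: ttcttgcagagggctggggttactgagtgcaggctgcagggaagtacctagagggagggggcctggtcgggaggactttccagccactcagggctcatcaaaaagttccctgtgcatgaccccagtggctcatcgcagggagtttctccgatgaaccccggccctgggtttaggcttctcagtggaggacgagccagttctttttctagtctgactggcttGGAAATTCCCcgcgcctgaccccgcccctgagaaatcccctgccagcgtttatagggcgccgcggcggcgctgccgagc

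Immediate early genes fell further. The AP-1 and immediate early list had 23 of 32 members lower and 2 higher (median -1.11), and 17 of the falls were beyond 1. Ier2 lay at 82.8 to 150.4 CPM (median 106) with vehicle and 6.85 to 15.5 CPM (median 7.26) with β-NMN (-3.71 ± 0.23, adjusted p = 2.89e-08). The orphan nuclear receptor Nr4a3 lay at 186 to 382 CPM (median 297) against 45.3 to 59.95 CPM (median 49.8) (-2.51 ± 0.16), and its relatives Nr4a1 (-2.48) and Nr4a2 (-2.3) were lower too. Fos-type genes fell (Fosb (-2.34), Fos (-1.59), Fosl1 (-2.97) and Fosl2 (-2.17)), and so did Egr1 (-1.79), Egr3 (-1.49) and Egr4 (-3.53), but Jun (-0.17) and Egr2 (-0.12) were not called. The 2 members that rose were Batf3 (1.69) and Atf3 (0.4). Phosphatases and Sprouty proteins that these pathways induce to restrain MAP kinases followed, with 11 of 19 lower and 3 higher (median -0.92, or -1.16 without vehicle replicate 3 and β-NMN replicate 6). Dusp2 lay at 207 to 300.2 CPM (median 247) against 42.8 to 65.7 CPM (median 51.2) (-2.25 ± 0.12, adjusted p = 5.76e-09), and Dusp1 (-1.87) and Dusp5 (-1.34) fell as well, while Dusp22 (0.79), Spred1 (0.58) and Spred3 (0.5) were higher.

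Genes that end G protein and cAMP signals were also more often lower, 8 against 2 of 16. Pde4b, the main cAMP phosphodiesterase of stimulated macrophages, lay at 542 to 725 CPM (median 612) against 124 to 251 CPM (median 139.8) (-1.95 ± 0.16), and Pde4d (-3.1), Rgs16 (-2.33) and Rgs2 (-1.37) fell with it. Rgs1 (-0.0068) was not called. Adenosine receptor genes fell (Adora2a (-1.09) and Adora2b (-1.93)), whereas the purine list as a whole was split, with 5 higher and 8 lower of 20. Of the SOCS and STAT genes, 9 of 21 were lower, among them Stat4 (-2.15), Cish (-0.85) and Socs3 (-0.98), and 2 were higher, Socs2 (0.65) among them.

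Secreted mediators were mostly lower. Interleukins, colony-stimulating factors and TNF ligands had 25 of 36 members lower and 7 higher (median -1.16). Il1b lay at 1403 to 3502 CPM (median 2585) with vehicle and 190.4 to 333 CPM (median 299.7) with β-NMN (-3.17 ± 0.26, adjusted p = 2.55e-07). Il23a (-4.71), Lif (-3.03), Tnfsf15 (-2.35) and Ebi3 (-1.62) fell, and the members called higher were Tnfsf12 (1.51), Tnfsf13b (1.29), Il15 (0.82), Tnfsf10 (0.78), Il27 (0.69), Tnfsf4 (0.64) and Tnfsf13 (0.62). Tnf itself fell by a smaller amount (-0.87). Chemokines had 11 lower and 3 higher of 25: the neutrophil attractants Cxcl3 (-1.81), Cxcl2 (-1.48) and Cxcl1 (-0.84) were lower and Ccl9 (0.98), Pf4 (0.64) and Cxcl16 (0.29) higher. Cxcl10 (0.072) and Ccl5 (-0.0056), both interferon-responsive, were not called.

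Growth factors of the EGF family divided sharply. Ereg (-4.13), Areg (-3.48), Nrg1 (-3.04), Tgfa (-2.4) and Btc (-2.13) fell, whereas Hbegf rose (1.32 ± 0.13), and over the whole growth factor list 11 of 22 were lower and 5 higher. The list's median of -0.92 rests in part on single libraries, being -0.45, -0.57 and -0.60 without vehicle replicate 4, 5 or 6 in turn, and it was -0.16 with a stricter filter that drops its rarer members. Of the angiogenic factors, Vegfa (-1.34) and Vegfc (-2.85) were lower and Vegfb (0.81) higher. Collagens and matrix glycoproteins were the list with the lowest median (-2.04), with 22 of 27 lower and 1, the macrophage product Spp1 (0.79), higher. Col1a1 (-3.28), Col1a2 (-2.84) and Sparc (-2.8) are fibroblast products, and the summed fibroblast markers, some of which are themselves in this list, fell in the same libraries, with the highest value in vehicle replicate 3. Without that replicate the list median was -1.59. By library, the members' median relative to the vehicle mean ran from -1.38 to 1.29 with vehicle and from -2.72 to -1.19 with β-NMN, so the groups overlapped. Fn1 (-1.45) and Thbs1 (-1.62), which macrophages also make, were lower as well.

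Proteases of the matrix were mixed, with 7 higher and 11 lower of 24. The macrophage elastase gene Mmp12 (1.16) and the inhibitor Timp2 (1.01) were higher, and Timp1 (-1.83), Mmp2 (-3.21) and Mmp9 (-0.9) lower. Complement genes were split too (7 higher, 6 lower of 21): the central component C3 fell (-1.75 ± 0.15) and the receptor Vsig4 rose (2.16), while the chains of C1q were not called (C1qa (-0.2), C1qb (0.24) and C1qc (0.35)). In coagulation, 11 of 24 were lower and 8 higher. The anticoagulant receptors Procr (-3.09) and Thbd (-2.21) and the plasminogen activator Plat (-2.26) fell, and Plau (1.11), F7 (1.09) and Pros1 (1.25) rose. Tissue factor, F3, was not called (0.0065).

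Eicosanoid genes were more often lower than higher, with 13 lower and 4 higher of 24. Ptgs2, which encodes cyclooxygenase-2, lay at 8941 to 13610 CPM (median 10360) with vehicle and 2166 to 4490 CPM (median 2601) with β-NMN (-1.92 ± 0.17, adjusted p = 7.17e-07). The phospholipase Pla2g4a (-0.86) before it and the synthase Ptges (-1.31) after it fell, and so did the receptors Ptger2 (-2.17) and Ptger4 (-1.27). The members called higher were Pla2g15 (1.8), Alox15 (1.33), Ephx1 (0.56) and Lta4h (0.34). Alox5 (0.35) and Alox5ap (-0.17), which start leukotriene synthesis, were not called.

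Interferon response genes did not fall with the NF-κB genes. Of 41 type I interferon response genes, 11 were called higher and 3 lower (median 0.14, or 0.24 without vehicle replicate 1 and 0.093 without vehicle replicate 3 and β-NMN replicate 6), a share of higher calls close to that of all genes. Ifnb1, the interferon-β gene, was called higher (1.41 ± 0.21, adjusted p = 6.09e-05). Mx1, an antiviral GTPase, lay at 574 to 1206 CPM (median 1004) with vehicle and 1770 to 2600 CPM (median 2145) with β-NMN (1.25 ± 0.17). Mx2 (1.02), Cmpk2 (0.64), Ifit2 (0.63), Ifit1 (0.53) and Ifit3 (0.53) were higher, whereas Isg15 (-0.064), Irf7 (-0.2) and Rsad2 (0.34) were not called. Ifit1bl1 (-1.42), Irf9 (-0.46) and Ifnar2 (-0.42) were lower. The guanylate-binding and immunity-related GTPases, most of which respond to interferon-γ, had 0 of 19 higher and 5 (26.3%) lower, against 23.7% and 27.9% of all genes tested. Their median of -0.07 turned to between 0.0024 and 0.014 without vehicle replicate 1 or 6 or β-NMN replicate 1 or 3. Tgtp1 (-1.19) and Gbp2b (-1.18) fell most, and 3 calls in place of 5 remained without β-NMN replicate 4. Gbp2 (-0.023), Gbp5 (0.22) and Irgm1 (-0.2) were not called. Members of these families share sequence, so reads may be split between copies. Schlafen genes were divided, with 2 of 8 higher and 2 lower, the latter including Slfn4 (-1.0).

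Of 19 genes of antigen presentation by class II, 9 were called lower, 2 higher and 8 not called, and the list's medians by library overlapped between groups (-0.298 to 0.309 with vehicle and -1.05 to -0.083 with β-NMN): the class II chains H2-Ab1 (-0.94), H2-Eb1 (-0.79) and H2-Aa (-0.68) and the invariant chain Cd74 (-0.74) fell together, as did the costimulatory genes Cd80 (-1.72) and Icosl (-1.4). Ciita, the class II transactivator, was not called (-0.12), nor were Cd86 (0.085) and Cd40 (0.26). The lysosomal enzymes Ctss (0.76) and Ifi30 (0.48), which process antigen, were higher. Dendritic cells also carry class II, and their summed markers were lower without overlap. B cells carry it too, and 4 of 8 of their markers were called lower, with sums that overlapped (82.7 to 431 against 53.5 to 218 CPM). Class I was near balance, with 4 higher and 4 lower of 23. The falls were in H2-Q6 (-1.31), H2-Q7 (-1.18), H2-Q4 (-0.54) and H2-K1 (-0.41) and the rises in the chaperones and trimming enzyme Calr (0.45), Pdia3 (0.41), Canx (0.31) and Erap1 (0.33).

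Receptors that guide cells toward inflammation were among the most reduced families. Chemoattractant receptors had 20 of 29 lower and 3 higher (median -1.60). Fpr1 and Fpr2 bind formylated bacterial peptides, and Fpr2 lay at 161 to 265 CPM (median 199) with vehicle and 8.23 to 26.6 CPM (median 17.2) with β-NMN (-3.66 ± 0.26), Fpr1 at 61.7 to 144 CPM (median 93.9) against 0.703 to 2.88 CPM (median 1.65) (-5.93 ± 0.38, adjusted p = 3.13e-08). They lie side by side on chromosome 17 (Fpr1 at 17876471 to 17883940, Fpr2 at 17887824 to 17893952, GRCm38), and the next gene, the hyaluronan synthase Has1, fell as well (-3.19 ± 0.34), while Spaca6 beyond it was not called (0.019). Ccr7 (-2.41), Cxcr4 (-1.6), Gpr35 (-2.81) and Ccr2 (-1.83) were lower too. S1pr2, a sphingosine-1-phosphate receptor that restrains migration, went the other way, at 23.6 to 45 CPM (median 35.3) with vehicle and 102 to 144 CPM (median 116) with β-NMN (1.79 ± 0.16, adjusted p = 4.87e-07), as did Ccr3 (1.47) and Cysltr1 (0.72). Ccr1 (-0.1) and Ptafr (-0.057) were not called. Cxcr2, Ccr2 and Ccr7 are also markers of neutrophils, monocytes and dendritic cells, whose summed markers were lower without overlap, and the part of these cells in the family's fall was not tested.

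The Trem locus showed both directions within one cluster. Trem1, Trem3 and Treml4 are neighbours on chromosome 17, from 48232768 to 48275360, and Trem1 lay at 22.8 to 41.3 CPM (median 31.3) with vehicle and 0.159 to 1.48 CPM (median 0.476) with β-NMN (-5.8 ± 0.36, adjusted p = 2.89e-08). Treml4 lay at 9.83 to 31.9 CPM (median 15.5) against 0.165 to 0.459 CPM (median 0.25) (-5.92 ± 0.35). Next along the chromosome, Treml2 (-0.24) and B430306N03Rik (0.34) were not called. Trem2, at 48346401 to 48354147, is a lipid receptor of phagocytic macrophages and lay at 125 to 248 CPM (median 157) with vehicle and 335 to 477 CPM (median 412) with β-NMN (1.3 ± 0.15, adjusted p = 6.34e-06). Trem1 amplifies inflammatory signals in neutrophils and monocytes, and the part in its fall of the neutrophil and monocyte markers, both lower in sum, was not tested. The related Cd300 genes were partly higher (Cd300a (0.9), Cd300lb (0.99), Cd300c2 (0.49) and Cd300ld (0.39)) and lower in Cd300e (-2.34).

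C-type lectin receptors were divided between 9 higher and 12 lower of 26. Clec4n, which encodes the fungal mannan receptor Dectin-2, lay at 41.6 to 87.6 CPM (median 57.6) with vehicle and 1.8 to 3.39 CPM (median 2.09) with β-NMN (-4.72 ± 0.23, adjusted p = 4.19e-09). Its neighbours on chromosome 6, Clec4d (-1.29 ± 0.14) and Clec4e (-0.99 ± 0.14), fell by less, and Clec4a2 on its other side was not called (0.19). The mannose receptor Mrc1 (1.05) and Mgl2 (2.19) and Cd93 (1.04) rose, as did Lgals3 (1.22), which the list holds although galectins are a separate lectin family. Among the Siglecs, which bind sialic acid and mostly inhibit, Siglece lay at 35.9 to 77.4 CPM (median 58.7) against 0.813 to 3.03 CPM (median 1.49) (-5.11 ± 0.28, adjusted p = 8.12e-09), Cd33 (-1.11) and Siglec1 (-0.32) fell and Cd22 (1.09) and Mag (1.05) rose.

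Receptors for dying cells and modified lipids leaned to higher levels, 15 against 4 lower of 30 (median 0.45). Mertk, the kinase that takes up apoptotic cells, lay at 27 to 85.7 CPM (median 77.2) with vehicle and 129 to 275 CPM (median 176) with β-NMN (1.48 ± 0.24, adjusted p = 0.000151), and its bridging ligands Gas6 (1.33) and Pros1 (1.25) rose with it. The scavenger receptor Cd36 lay at 447 to 719 CPM (median 545) against 1061 to 1338 CPM (median 1235) (1.12 ± 0.11). The phosphatidylserine receptor Timd4 (1.73), the haemoglobin receptor Cd163 (1.95) and the bridging protein Mfge8 (1.03) were higher. Msr1 (-0.031) and Axl (-0.044) were not called, and Scara5 (-1.63), Abca7 (-0.66), Tyro3 (-0.64) and Scarf1 (-0.6) were lower, Scara5 at less than 1 CPM in every library.

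In the other surface families calls went both ways. Fc receptors and their adaptors had 5 higher and 4 lower of 19, with the adaptor Tyrobp (0.76) higher and the inhibitory receptor Fcgr2b (-0.86) and phosphatase Inpp5d (-0.87) lower. Integrins and their partners had 6 higher and 10 lower of 26: Itgal (-2.69), Fermt3 (-1.33) and Vcam1 (-0.85) fell, Itga6 (0.56) and Itgax (0.64) rose, and the abundant chains Itgam (-0.2) and Itgb2 (-0.073) were not called. The integrin list's median was -0.28, and by library the members' median ran from -0.042 to 0.062 with vehicle and from -0.356 to -0.167 with β-NMN, without overlap. Paired Ig-like receptors had 6 higher (Cd200r1 (1.31) and Pira2 (0.89) among them) and 7 lower (Pilra (-1.45) and Sirpa (-0.93) among them) of 19. The Ms4a and tetraspanin genes had 8 higher and 10 lower of 27, with Tspan4 (1.1) and Cd63 (0.79) up and Cd82 (-1.52) and Ms4a4a (-1.85) down. Of 11 SLAM family genes, 4 were higher, led by Slamf8 (1.12), and 3 lower, Slamf1 (-1.82) among them.

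Lysosomal genes rose together. Of 52 lysosomal hydrolase and cofactor genes, 43 were called higher and 2 lower (median 0.65), and β-NMN lay above vehicle in every library for 32. Ctsb, the gene of the protease cathepsin B, lay at 6073 to 8201 CPM (median 7014) with vehicle and 14740 to 17690 CPM (median 15700) with β-NMN (1.17 ± 0.10, adjusted p = 6.55e-07). The rise ran across classes of enzyme: the saposin precursor Psap (1.35), the proteases Ctsd (1.08), Ctsl (0.99) and Ctsa (1.06), the lipases Pla2g15 (1.8) and Lipa (1.21), the glycosidases Hexa (1.06), Gusb (0.98) and Glb1 (0.85) and the sulfatase Ids (1.28). The exceptions were Hgsnat (-1.85 ± 0.17), the membrane enzyme of heparan sulfate breakdown, and the sialidase Neu1 (-0.97 ± 0.09). Ctsc (0.018), the activator of granule proteases, was not called.

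The list of lysosomal membrane proteins, which also holds the MiT/TFE transcription factors, had 16 of 26 members higher and 4 lower (median 0.45). Gpnmb, a glycoprotein of lipid-laden and phagocytic macrophages, lay at 5055 to 8201 CPM (median 5815) with vehicle and 16250 to 20880 CPM (median 18760) with β-NMN (1.59 ± 0.14, adjusted p = 4.41e-07), and Lamp1 (0.98), Laptm5 (0.94) and Lamp2 (0.57) were higher. Of the transcription factors in the list, which are known to drive lysosomal genes, 2 were among its 4 falls and 1 among its rises. Tfeb (chr17:47737030-47792419, GRCm38) lay at 27.6 to 50.2 CPM (median 31.4) with vehicle and 6.66 to 10.8 CPM (median 8.46) with β-NMN (-2.0 ± 0.16, adjusted p = 1.89e-07), and Tfe3 fell (-0.99 ± 0.08), whereas Mitf was not called (0.031) and Tfec rose (0.6 ± 0.16). Among V-ATPase genes, 14 of 19 were higher and 1 lower (median 0.38). Atp6v0d2, a subunit of macrophages and osteoclasts, lay at 118 to 218 CPM (median 137) against 333 to 628 CPM (median 509) (1.81 ± 0.17, adjusted p = 1.07e-06). Its near relative Atp6v0d1 was the 1 subunit called lower (-0.27).

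TFEB and its relatives bind the letters CACGTG in the CLEAR element of lysosomal promoters. The promoter window was at hand for 42 of the 52 hydrolase genes, and 10 (23.8%) held CACGTG, which reads the same on both strands, against 7.24% of all 27025 genes in the promoter table and 9.93% of the 10849 tested genes with a window. In the list of lysosomal membrane proteins and MiT/TFE factors, 3 of 21 windows (14.3%) held it. Of the 10 hydrolases, 7 were called higher, namely Ctsf (1.12), Ctsd (1.08), Ctsl (0.99), Nagpa (0.95), Glb1 (0.85), Gaa (0.62) and Naglu (0.59), and Gla (-0.12), Arsa (0.1) and Sgsh (0.084) were not called. Most hydrolases that rose have no such match in this window. The window of Ctsd (chr7:142387778-142388077, minus strand, GRCm38.p6) is printed because it holds the motif at 2 places, -245 and -98 from the start, both in capitals.
Ctsd: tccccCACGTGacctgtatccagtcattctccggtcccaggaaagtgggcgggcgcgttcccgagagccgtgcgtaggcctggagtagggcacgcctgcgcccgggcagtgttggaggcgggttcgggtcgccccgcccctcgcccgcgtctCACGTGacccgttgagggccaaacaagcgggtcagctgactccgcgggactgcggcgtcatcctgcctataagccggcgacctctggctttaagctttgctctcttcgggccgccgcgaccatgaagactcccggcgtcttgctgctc

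Autophagy genes did not follow the lysosome. Of 39, 9 (23.1%) were higher and 12 (30.8%) lower, near the shares of all genes tested (23.7% and 27.9%), with a median of -0.092. The cargo receptor Sqstm1 (-1.43), the initiating kinase Ulk1 (-1.15) and Atg2a (-1.72) and Atg101 (-1.27) fell, and the rises, such as Atg4c (0.67) and Vps41 (0.41), were small. The LC3 gene Map1lc3b was not called (-0.15).

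**Figure D4:**
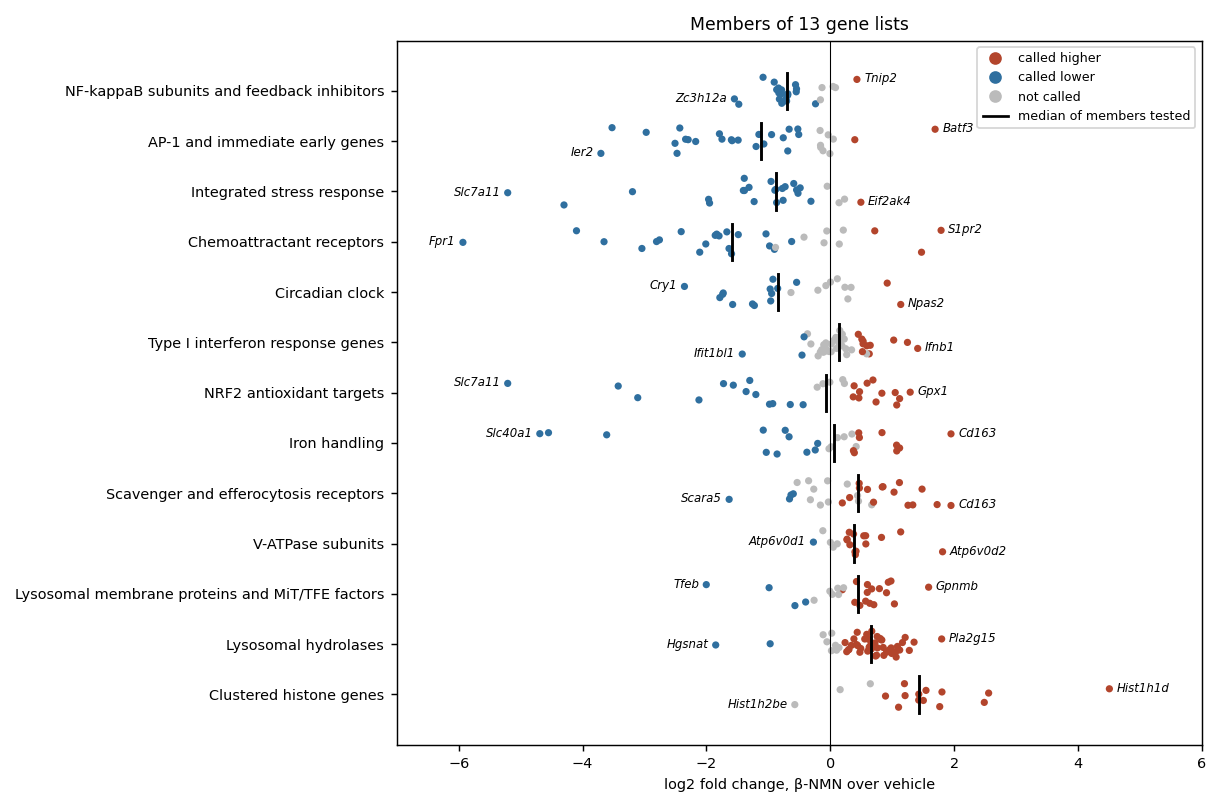
Log2 fold change, β-NMN over vehicle, of each tested member of 13 gene lists, coloured by call, with the list median as a black line and the lowest and highest member named. NF-κB, immediate early and stress response genes mostly lie left of 0, lysosomal, V-ATPase and histone genes right of 0, and the NRF2 and iron lists reach far to the left from a median near 0.

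Lipid genes moved both ways. Among liver X receptor targets and lipid genes, 10 were higher and 10 lower of 32. Pparg, a nuclear receptor of lipid storage, lay at 4.8 to 7.39 CPM (median 6.21) with vehicle and 16.5 to 21.3 CPM (median 18.2) with β-NMN (1.59 ± 0.12, adjusted p = 1.23e-07), and the lipid uptake and carrier genes Lpl (1.4), Fabp4 (1.49), Apoe (1.1) and Fabp5 (0.81) rose with it. The ubiquitin ligase Mylip, which limits lipoprotein uptake, fell (-2.43 ± 0.24), together with the cholesterol exporter Abca1 (-1.33) and the fatty acid synthesis genes Fasn (-1.21), Scd2 (-1.85) and Elovl6 (-1.07). Abcg1 (0.28) and Plin2 (0.12) were not called. In cholesterol synthesis, 11 of 28 were lower, including Idi1 (-1.68), Cyp51 (-1.07) and Hmgcs1 (-0.63), and 6 higher, among them Insig2 (0.98). Sphingolipid enzymes leaned to higher levels, 19 against 8 lower of 37, with Degs1 (0.91), Cers2 (0.76) and Acer3 (0.82) up and the sphingomyelin synthases Sgms1 (-0.84) and Sgms2 (-0.85) down. This list shares several hydrolases with the lysosomal one.

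The glycolysis list had 11 of 33 lower and 6 higher, shares near those of all genes, and its median of -0.12 turned to 0.0057 without vehicle replicate 3 and β-NMN replicate 6: the lactate carriers Slc16a1 (-1.54) and Slc16a3 (-0.85) and the glucose transporter Slc2a1 (-0.86) fell, the mitochondrial pyruvate carrier genes Mpc1 (0.9) and Mpc2 (0.57) rose, and Hk2 (-0.042), Pkm (-0.033) and Gapdh (-0.2) were not called. Hif1a itself was lower (-1.11 ± 0.13), as were 11 of 23 HIF pathway genes, with Bnip3l (0.93), P4ha1 (0.61) and Epas1 (0.73) higher. Of 15 pentose phosphate and NADPH genes, 4 were higher and 1 lower, none beyond 1 among the called. The arginine, itaconate and polyamine list had 12 lower and 2 higher of 20. Inducible nitric oxide synthase, the itaconate enzyme and both rate-limiting polyamine enzymes fell (Nos2 (-1.48), Acod1 (-1.31), Odc1 (-1.53) and Amd1 (-1.23)), while Sms (1.43) and Sat1 (0.53) rose.

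Mitochondrial genes showed small, broad rises. Nuclear genes of the respiratory complexes were higher in 47 of 76 cases and lower in 1, Uqcrq (-0.29) (median 0.34), and Ndufa4 (1.05) was the one call above 1. Mitochondrial ribosomal protein genes did likewise, with 42 of 77 higher and 1 lower, Mrpl49 (-0.41) (median 0.38). All 11 called among 15 mitochondrially encoded genes were higher, such as mt-Nd4 (0.76), mt-Nd1 (0.69) and mt-Cytb (0.52), and the 2 ribosomal RNAs were not called (mt-Rnr1 (-0.19) and mt-Rnr2 (-0.33)). Mitochondrial reads made up 0.504% to 0.653% of counts with vehicle and 0.599% to 0.886% with β-NMN. Fatty acid oxidation had 10 higher and 1 lower of 29, the latter being the carnitine carrier Slc25a20 (-0.56), and 17 calls in place of 11 without vehicle replicate 3 and β-NMN replicate 6. The carriers of the SLC25 family were split, with 11 higher and 7 lower of 34: Slc25a28 (1.17) was highest and Slc25a33 (-2.08) lowest.

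Antioxidant genes went in opposite directions. Of 30 NRF2 targets and related genes, 12 were higher and 13 lower, and the median of -0.064 turned to 0.019 without vehicle replicate 3, 0.004 without vehicle replicate 4 and 0.027 without both vehicle replicate 3 and β-NMN replicate 6. Nfe2l2, which encodes NRF2, lay at 230.4 to 341 CPM (median 293) with vehicle and 78.1 to 100.5 CPM (median 84.5) with β-NMN (-1.73 ± 0.10, adjusted p = 2.07e-08). Slc7a11, which imports cystine for glutathione, lay at 312 to 832 CPM (median 412) against 8.23 to 21.4 CPM (median 9.8) (-5.21 ± 0.33), with no overlap. The genes Gclm (-1.36), Gclc (-1.2) and Gsr (-0.93) of glutathione synthesis and recycling, the reductases Srxn1 (-2.12) and Txnrd1 (-1.57) of the peroxiredoxin and thioredoxin systems, the quinone reductase Nqo1 (-3.11) and the growth inhibitor Osgin1 (-3.43) fell with them. Haem oxygenase Hmox1 (1.12), the peroxidase Gpx1 (1.29), the transferase Gstm1 (1.05) and Prdx1 (0.69) and Cat (0.46) rose. NADPH oxidase and dismutase genes had 7 of 12 lower and 0 higher (median -0.64): the cytosolic subunits Ncf1 (-0.61), Ncf4 (-0.84) and Rac2 (-0.89) were lower, and the membrane subunits Cybb (0.2) and Cyba (0.16) were not called.

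Iron genes held some of the largest single falls. Slc40a1 (chr1:45908068-45926523, GRCm38) encodes ferroportin, the only known cellular iron exporter, and lay at 25 to 64.6 CPM (median 51.4) with vehicle and 1.59 to 2.35 CPM (median 1.92) with β-NMN (-4.69 ± 0.22, adjusted p = 4.19e-09). Lcn2, a siderophore-binding protein also stored in neutrophil granules, lay at 319.7 to 470.2 CPM (median 407) against 8.67 to 28.8 CPM (median 15.9) (-4.55 ± 0.29). The ferrireductase Steap4 (-3.61) and the importer Slc39a14 (-1.08) fell, and Cd163, Hmox1 and the haem transporter Slc48a1 (1.07) rose, as did Hamp (1.07), the ferroportin-binding hormone hepcidin. Ferritin chains parted, Fth1 (-0.67) falling and Ftl1 (0.39) rising. The whole list had 9 higher and 11 lower of 26. Metallothioneins Mt1 (-0.66) and Mt2 (-0.91) were lower and zinc transporters mixed, for 5 higher and 6 lower of 19, with Slc30a1 (1.13) and Slc39a10 (1.19) up and Slc39a4 (-2.15) down.

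The integrated stress response, in which ATF4 induces amino acid genes, was lower nearly throughout: 22 of 26 were called lower and 1, the kinase Eif2ak4 (0.49), higher (median -0.87). Ddit4, an inhibitor of mTORC1, lay at 232 to 547 CPM (median 366) with vehicle and 17.2 to 25 CPM (median 19.8) with β-NMN (-4.3 ± 0.21, adjusted p = 4.19e-09). Atf4 (-0.76), Ddit3 (-1.23), Ppp1r15a (-0.87), Chac1 (-1.95), Sesn2 (-1.39) and Asns (-0.59) fell. Tribbles pseudokinases fell too (Trib1 (-3.2) and Trib3 (-0.78)), while Nupr1 (0.23) and Psat1 (0.14) were not called. Slc7a11 and Ddit4 stand in other lists as well.

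Among other genes of protein synthesis and turnover, few ribosomal proteins were called and proteasome changes were small. Cytosolic ribosomal proteins had 8 higher and 3 lower of 80, none without overlap between groups and Rps10 (1.12) the one call beyond 1, and the 11 calls became 19 without vehicle replicate 3 and between 4 and 7 without any of vehicle replicates 2, 4, 5 and 6 or β-NMN replicates 1, 2 and 5. Aminoacyl-tRNA synthetases were evenly split (7 and 7 of 22), with Farsa (0.77) and Dars (0.61) up and the ATF4-responsive Iars (-0.64), Tars (-0.61) and Mars (-0.59) down. Chaperones had 13 higher and 6 lower of 31: Hspa1a (1.15) and Hspa1b (1.12), near-identical copies that can share reads, rose and Dnajb9 (-1.26), Dnajb4 (-0.78) and Dnajb1 (-0.65) fell, while Hspa5 (0.19) was not called. Proteasome subunits had 9 higher and 5 lower of 31, none beyond 0.5 in either direction.

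Clustered histone genes had the highest median of the 63 lists (1.43). Of 31 listed, 16 passed the filter and 13 of those were called higher, 12 of them beyond 1, and 0 lower. Hist1h1d, a linker histone and the one gene in the table that rose by more than 4 on the log2 scale, lay at 0.0778 to 0.543 CPM (median 0.373) with vehicle and 1.72 to 10.1 CPM (median 8.42) with β-NMN (4.51 ± 0.42, adjusted p = 9.37e-07). The others included the linker histones Hist1h1c (2.56) and Hist1h1e (1.43) and the core histones Hist1h2bg (2.49), Hist3h2a (1.8), Hist1h2bc (1.2) and Hist1h4i (1.55), and Hist1h2be (-0.57) was not called. Most replication-dependent histone mRNAs end without a poly(A) tail and the libraries were made from poly(A) RNA, so these values cover the tailed transcripts. Several are near-identical genes and many were rare, so sharing of reads between copies is possible. Hist1h1c was well counted, and its lowest β-NMN library, replicate 6, still lay above the highest vehicle library. Promoter windows were at hand for 13 of the 16, and 11 (84.6%) held CCAAT on either strand, against 37.9% of all 27025 genes in the table and 38.5% of the tested genes with a window. The window of Hist1h1c (chr13:23738557-23738856, plus strand, GRCm38.p6) holds it once, at -54 from the start, in capitals.
Hist1h1c: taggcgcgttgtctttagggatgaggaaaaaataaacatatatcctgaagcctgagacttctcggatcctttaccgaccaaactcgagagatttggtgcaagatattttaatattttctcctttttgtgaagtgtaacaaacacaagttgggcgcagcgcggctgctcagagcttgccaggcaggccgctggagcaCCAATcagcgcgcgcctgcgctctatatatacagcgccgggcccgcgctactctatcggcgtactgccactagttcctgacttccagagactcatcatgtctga

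Cell cycle genes went down, not up, beside the histones. Of 40, 26 were lower and 5 higher (median -0.67): Top2a (-1.69), Mki67 (-1.33), Mcm7 (-1.53), Mcm5 (-1.13), Ccnd2 (-1.69) and Rrm2 (-1.56) fell. Mcm6, a subunit of the same replicative helicase, lay at 7.76 to 16.7 CPM (median 11.9) with vehicle and 25.1 to 38.4 CPM (median 34.1) with β-NMN (1.49 ± 0.18, adjusted p = 9.43e-06), against the direction of Mcm2 (-0.93), Mcm3 (-1.0) and Mcm4 (-0.35). Cdkn1a, the inhibitor p21, was not called (-0.22).

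Circadian clock genes fell in 13 of 23 cases and rose in 2 (median -0.85). Cry1, a repressor of the clock, lay at 33.7 to 61.7 CPM (median 38.1) with vehicle and 7.14 to 10.3 CPM (median 7.79) with β-NMN (-2.36 ± 0.15, adjusted p = 3.21e-08), and Per1 (-1.74), Nr1d1 (-1.78), Cry2 (-1.26) and Arntl (-0.97) fell, while Bhlhe41 (0.92) and Npas2 (1.14) rose and Clock (-0.2) and Dbp (-0.072) were not called. No source used here gives the hour at which each mouse was sampled. Transcription factors of macrophages had 22 of 33 lower and 6 higher (median -0.67). Ets2, a factor that MAP kinases activate, lay at 590.3 to 804 CPM (median 696) against 143 to 219 CPM (median 147) (-2.12 ± 0.13, adjusted p = 2.13e-08), Id3 (-3.94), Cebpb (-1.4), Runx3 (-1.52) and Irf4 (-1.58) fell, and Irf8 (0.78), Irf5 (0.41), Nr1h3 (0.66) and Bach1 (0.5) rose. Spi1 (0.15), which defines the lineage, and Maf (-0.2) were not called.

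Genes that make or break down NAD+ were more often lower than higher. Of 24, 9 were lower and 2 higher: the NAD+-consuming ectoenzymes Cd38 (-1.36) and Bst1 (-0.8), the riboside kinase Nmrk1 (-1.46), the NAD kinase Nadk (-0.75) and the methyltransferase Nnmt (-1.91) fell, Nampt, the rate-limiting salvage enzyme, fell slightly (-0.37 ± 0.13), and Nadk2 (0.45) and Nnt (0.4) rose. The enzymes encoded by Nmnat1 (0.28) and Nmnat3 (-0.023), which turn NMN into NAD+, were not called. Sirtuins and PARPs had 5 higher and 3 lower of 24, with Parp3 (1.06) and Parp6 (0.84) up and Sirt7 (-0.51) the one sirtuin called.

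The actin list was balanced, with 13 higher and 12 lower of 40. Fscn1, the bundling protein of mature dendritic cells and migrating cells, lay at 67.7 to 108 CPM (median 73.5) with vehicle and 12.5 to 16.5 CPM (median 14.3) with β-NMN (-2.44 ± 0.12, adjusted p = 4.25e-09), and Rhof (-2.74), Vasp (-1.29) and Coro1a (-0.95) fell, whereas Rhob (1.11), Evl (0.85) and Vcl (0.8) rose. Of the 8 dendritic cell markers, 4 were called lower, Ccr7 among them, and their part in this fall was not tested.

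Library by library, the median of the members' log2 levels kept the 6 β-NMN libraries apart from the 6 vehicle libraries for 23 of the 63 lists. In 12 of those 23 lists, β-NMN replicate 6 was the β-NMN library nearest to the vehicle mean. In that library the NF-κB list stood at -0.29 relative to the vehicle mean on the log2 scale, against -0.908 to -0.669 in the other 5. The stress response list stood at -0.401, against -1.05 to -0.855. Its interferon-induced GTPases had the highest median of the 12 libraries, 0.422 above the vehicle mean, while its chemoattractant receptors had the lowest, -1.78.

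**Figure D5:**
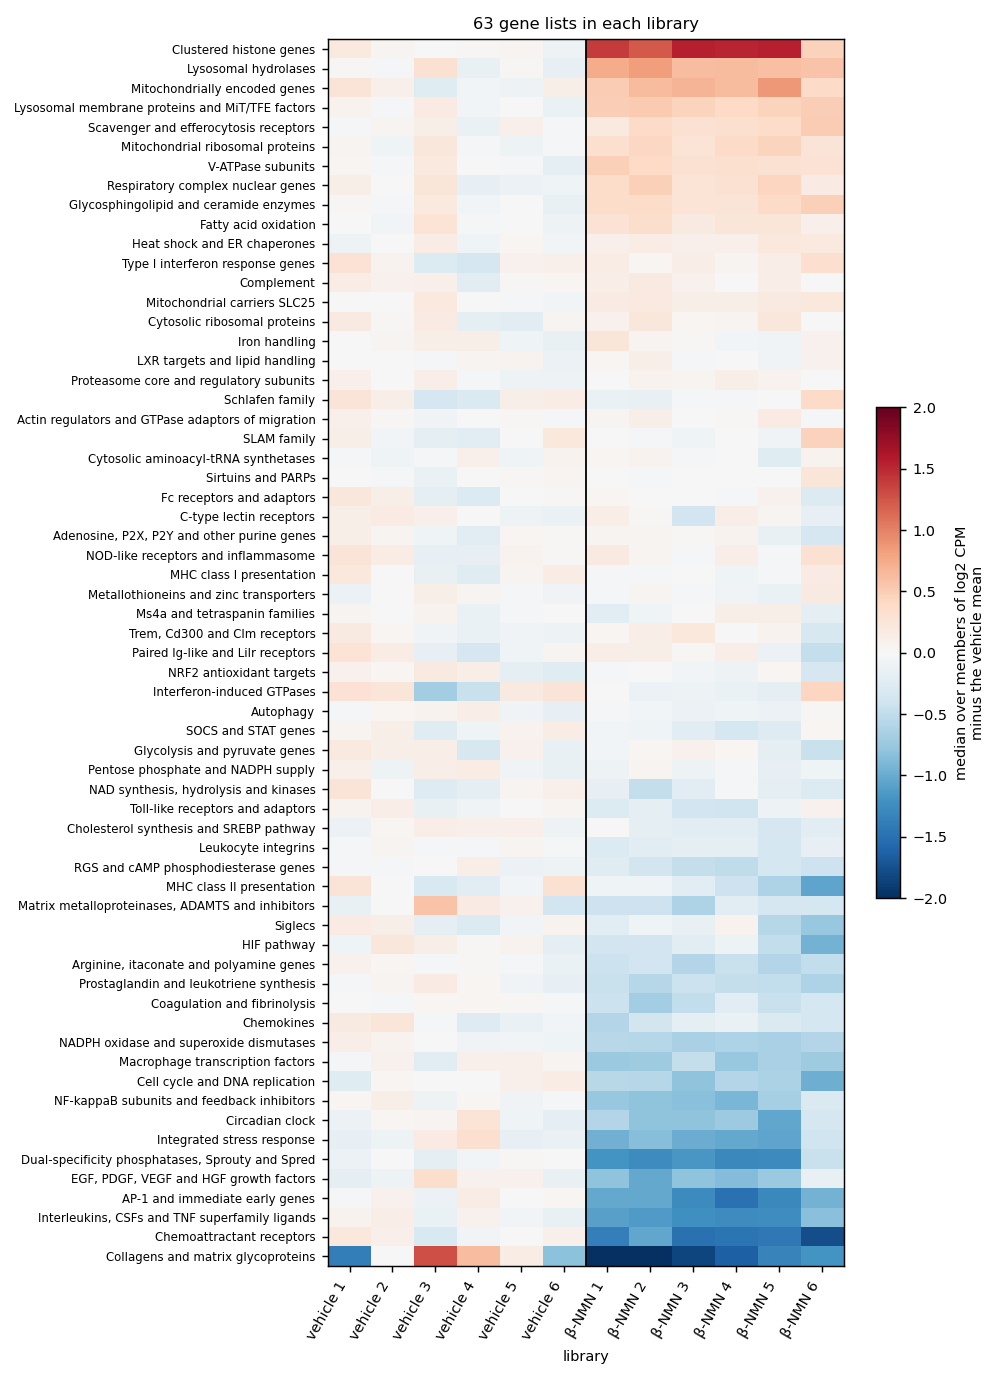
Median over the tested members of each list of log2 CPM minus the vehicle mean, for each of the 12 libraries, with lists ordered by median log2 fold change and the colour scale ending at 2 in either direction. Lysosomal, mitochondrial and histone lists are red in the β-NMN columns and the lists at the bottom are blue, with paler blues in β-NMN replicate 6 for several of them.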

How the data were processed

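RNA-seq was measured in 12 peritoneal cell cultures, 1 per mouse, and grouped by the sample labels into 6 β-NMN and 6 vehicle libraries. The other 12 samples of the series were not used here. Per the study's methods, the authors sequenced poly(A) RNA, aligned reads to mm10 with STAR (version 2.7.3a in the submitters' processing notes) and counted them per gene with featureCounts 2.0.0. No source used here gives the strand setting of the counting. The deposited values are raw counts, and no column of another sample was read.

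The counts were tested as deposited with edgeR 4.0.16 (older quasi-likelihood fit) in R 4.3.3, after its default filter on low counts, with TMM factors and Benjamini-Hochberg adjustment over all 14985 genes tested. "Called" means an adjusted p below 0.05, and fold changes are β-NMN over vehicle with their SE. Levels (CPM) are counts scaled to the TMM-adjusted library size, and the biological coefficient of variation was 0.233. An exact two-sided permutation of 6 against 6 libraries cannot go below p = 0.00216, which any gene without overlap reaches by construction, so no such p is given for single genes. Gene positions follow GENCODE, and promoter windows are from RefSeq. Only 10849 of the genes tested (72.4%) matched a promoter. This was judged too few for a comparison of motifs between called and other genes, which is not given. More pairs of list and motif were scanned than are printed, and not all lay above the background. TGACGT was in 13% of stress response windows against 11.9% of tested genes with a window, and GGGCGG in 40.6% of respiratory complex windows against 62%.

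The members, gene lists and tests were chosen with earlier results of these data known. Named genes were the 10 called genes that rose most and the 10 that fell most, given no overlap between groups and an average log2 CPM of 3 or more, then per list up to 3 called members in each direction by p, those against the list's direction, and members needed to follow a sentence. Further members were named as examples after their values were seen. The values of some list members are not reported here. No source used here says that the replicate numbers pair the libraries, and the main fit did not pair them. Scripts were tested on simulated data in which 200 genes were changed, with rises and falls in like number. That setting does not test scaling where 51.6% of genes are called and large changes are mostly falls. Alternatives were other scaling factors, no or a stricter filter, DESeq2 1.42.0, limma 3.58.1 with quality weights, other quasi-likelihood fits, a replicate block, and each library left out in turn. Leaving out vehicle replicate 3 and β-NMN replicate 6 together was added after seeing the data.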

Additional observations from a re-analysis of the deposited data

Results flagged for a closer look

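In 21 of 142 groups of 6 values, 1 library stood apart from the other 5 by more than Dixon's limit on its gap as a share of the group's range, where chance alone flags about 1 in 20 groups. β-NMN replicate 6 was the library in 7 of them. It was the lowest for Hist1h1c (45.9 CPM) and the highest for Ier2 (15.5 CPM), Pde4b (251 CPM), Nlrp3 (353 CPM), Ptgs2 (4491 CPM) and Ets2 (219 CPM), and it had the lowest TMM factor of its group (0.888). In each of these genes it was the β-NMN library closest to vehicle. β-NMN replicate 5 held the highest β-NMN values of Trem1 (1.48 CPM), Trem3 (0.994 CPM), G0s2 (1.89 CPM) and S100a9 (6.91 CPM). Vehicle replicate 4 was the highest vehicle library for Treml4 (31.9 CPM), Slc7a11 (832 CPM), Nlrp3 (1247 CPM), Cry1 (61.7 CPM) and Fscn1 (108 CPM). Vehicle replicate 3 was the highest for Trem2 (248 CPM), Atp6v0d2 (218 CPM) and the summed fibroblast markers (1180 CPM). The remaining values were the summed T cell markers of vehicle replicate 6 (82.6 CPM) and the summed dendritic cell markers of β-NMN replicate 2 (53.3 CPM). Every gene named here stayed called, in the same direction, when any of the 12 libraries was left out.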

How the results depend on the processing

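Under the 23 alternatives the count of genes called ran from 6775 (no filter on low counts) to 8863 (limma with quality weights), against 7733, and higher genes made up 44.1% to 50.7% of calls. The number called beyond 1 on the log2 scale moved to 1847 with the stricter filter, which tests only 12231 genes. Leaving out 1 library gave 7132 to 8049 genes called, 3252 to 3999 higher, 3652 to 4183 lower and 2604 to 3003 beyond 1. Without vehicle replicate 3 and β-NMN replicate 6 together, 8341 were called.

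Same-numbered libraries did not deviate together (correlations of -0.17 to 0.13, 1 of 6 above 0.1, and 0 of 6 pairs best with their own number). Correlations over 6 pairs cannot settle whether the numbers pair the animals. With the replicate number as a block, 7010 genes were called (3188 higher, 3822 lower, 2721 beyond 1), of which 6881 were also called without it.

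All 1194 refits of single detailed genes kept direction and call. List medians changed by less than the pooled SD, between libraries of a group, of the list's median level in 1431 of 1449 cases. Counts of called members stayed within a fixed ratio of the reported count in 1428. The medians of 16 lists changed sign under some setting, and none of these was beyond 0.2 as reported, though that of the Trem and Cd300 list became 0.26 with the stricter filter. The count for cytosolic ribosomal proteins was the least stable, from 1 to 25 against 11. With no filter, 47770 genes were tested and 3174 were called beyond 1, and 6200 of the calls were shared with those made after filtering.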

Other observations

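Annotated gene types were called at different rates. Protein-coding genes were called in 53.8% of 12847 cases, 3085 higher and 3833 lower. Transcripts marked for experimental confirmation (TEC) leaned the other way, with 101 of 302 higher, 35 lower and a log2 median of 0.36. Antisense RNAs had 100 higher and 70 lower of 376, long intergenic RNAs 79 and 91 of 384, and processed pseudogenes 60 and 33 of 457. Reads from antisense RNAs and pseudogenes can belong to partner or parent genes, and this was not tested.

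The 20 genes with the most counts took 12.6% to 14.2% of all counts with vehicle and 15.9% to 17.3% with β-NMN, without overlap.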
